A study of Mus musculus with 5 samples.

Results

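The basement membrane genes described here were 10 genes chosen by name, the type IV collagen chains *Col4a1* and *Col4a2*, the related collagens *Col15a1* and *Col18a1*, the laminin chains *Lama4*, *Lamb1* and *Lamc1*, the nidogens *Nid1* and *Nid2*, and the perlecan gene *Hspg2*. They are 10 of the 21835 genes in the deposited table. All 10 passed the filter on low values, at least 0.5 CPM (counts scaled to a common library total) in 2 or more samples, and each did so on the CAF-vec values alone and on the CAF-200 values alone. The bulk RNA sequencing covered cultured cancer-associated fibroblasts (CAFs) of mouse lung, as 2 CAF-vec and 3 CAF-200 samples. CAF-vec carried an empty lentiviral vector and are labelled as the wild-type control, and CAF-200 overexpressed the miR-200b, miR-200a and miR-429 cluster from the lentivirus after drug selection. All cells were grown in alpha-MEM with 10% fetal bovine serum, and neither mouse age nor strain is given for the fibroblasts. The comparison asked how basement membrane transcripts differed in CAFs that overexpress miR-200. The labels do not say whether the samples came from separate cultures, so the *p* values measure the spread between these samples, which may be technical.

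A basement membrane is a thin sheet of matrix that underlies epithelia and endothelia and wraps muscle, fat and nerve cells. Laminins, trimers of 1 α, 1 β and 1 γ chain, and type IV collagen each build a network, and nidogens and perlecan link the networks. Fibroblasts are known to secrete many of these components, including nidogens and type IV collagen. Collagens XV and XVIII are paralogs that sit where basement membranes meet the interstitial matrix, and each releases an antiangiogenic C-terminal fragment, which for collagen XVIII is endostatin.

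The overexpressed miRNAs are shown first because their seeds, bases 2 to 8, decide which sites in a 3′-UTR they can pair with. The mature sequences are from RefSeq (GRCm38.p6), where the cluster lies on the minus strand of chromosome 4, and the seed is in capitals.
mmu-miR-200b-3p: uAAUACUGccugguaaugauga
mmu-miR-429-3p: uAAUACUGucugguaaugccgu
mmu-miR-200a-3p: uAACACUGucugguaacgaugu
miR-200b and miR-429 share a seed, whose 7-base match is CAGTATT, while the match to miR-200a is CAGTGTT. In the longest annotated 3′-UTR of each gene (GENCODE M21), read on the transcript's strand only, 1 of the 10 genes held a CAGTATT match and 2 held a CAGTGTT match. Among the 12060 tested genes with such a 3′-UTR, 15.7% held CAGTATT and 20.9% held CAGTGTT. *Lamc1* held 1 match to the shared seed and 2 to that of miR-200a in its 3′-UTR of 2551 bases, and *Col4a1* held 1 to that of miR-200a in 1378 bases. These sites are shown because they are the only matches in the 10 genes, with the match in capitals and flanking bases in lower case.
*Lamc1*, miR-200b and miR-429, chr1:153218959-153218965: aaaaagaaaaCAGTATTttatt
*Lamc1*, miR-200a, chr1:153220358-153220364: cacccgctctCAGTGTTtctca
*Lamc1*, miR-200a, chr1:153219876-153219882: gcctagtcccCAGTGTTttgct
*Col4a1*, miR-200a, chr8:11199370-11199376: acccactgtcCAGTGTTtccac
The coordinates are those of GRCm38, and all 4 sites lie in the 3′-UTR on the minus strand. The other 8 genes held neither of these letters in the window searched, which was short for *Lamb1* (151 bases) and *Lama4* (155 bases). A match is a description of the sequence and was not tested as a binding site.

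Of the 10 genes, *Col15a1* and *Nid1* rose in CAF-200 and *Lamc1* fell, at an adjusted *p* under 0.01 from limma with Benjamini-Hochberg adjustment over 12175 genes. The share of all genes tested that rose by this rule was 4.45%, and the share that fell was 5.57%. *Col15a1* alone also had a log2 difference beyond 1, a rule met by 4.72% of all genes tested. At an adjusted *p* under 0.05, 2 of the 10 genes were higher and 4 were lower, where 11.9% and 18.6% of all genes tested were, 30.5% together. Without any 1 of the CAF-200 samples none of the 3 calls at 0.01 was kept, since at most 1 of all genes tested then passed, while 6 of the 10 genes had an unadjusted *p* under 0.05 (limma), as did 31.5% to 33.5% of all genes tested. With 1 CAF-vec sample left out, the lone one is assumed to vary like the CAF-200 samples. Without CAF-vec 1, *Col4a1* and *Col4a2* also rose and *Col18a1*, *Lama4* and *Nid2* also fell, and without CAF-vec 2, *Col18a1*, *Lamb1* and *Nid2* also fell. Of all genes tested, 29.9% passed in either direction without CAF-vec 1 and 50.6% without CAF-vec 2. The median log2 difference of the 10 genes was -0.24, against -0.094 for all genes tested. In each of the 10 genes the groups did not overlap, with CAF-200 higher in 4 genes and lower in 6. The same held for 24.3% of all genes tested in the higher direction and 37.3% in the lower, 61.6% together. Differences of single genes are given as CAF-200 minus CAF-vec on log2(CPM + 0.5), so that they understate the change of low genes, and those of ratios between genes are on log2 of the plain CPM ratio. In bulk samples, fewer cells that express a gene and less of its RNA per cell cannot be told apart.

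**Figure D1:**
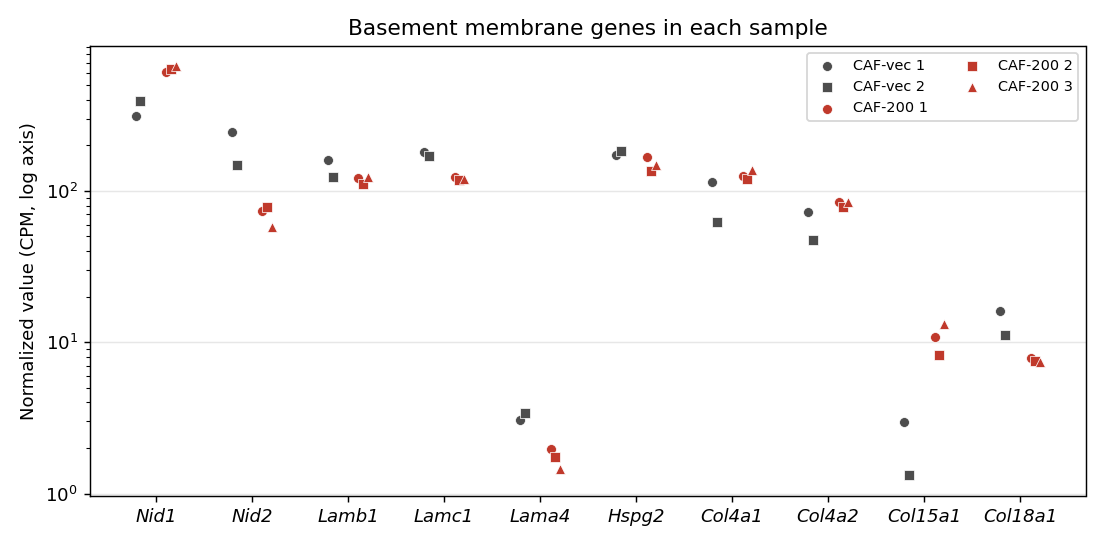
Normalized values (CPM, log axis) of the 10 basement membrane genes, with 1 point for each of the 2 CAF-vec samples (grey) and the 3 CAF-200 samples (red) and the replicate number given by the marker shape. *Nid1* sits between 614.6 and 665.3 CPM in CAF-200, above both CAF-vec samples, while *Nid2* sits between 57.9 and 78.3 CPM, below both.

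Facts of the whole table bear on how firmly these differences can be read. CAF-vec 1 and CAF-vec 2 stood further apart (SD of their log2 difference 0.49, over all genes tested) than did pairs of CAF-200 samples (0.19 to 0.20). The 3 CAF-200 columns list the same 15708 genes above 0, of which 816 to 1108 are traces under 0.005 CPM, whereas the CAF-vec columns list 13937 and 14422 genes above 0 and 0 such traces. The CAF-200 values may therefore not be independent of each other, and the part of this in their narrow spread and in the *p* values was not tested. Between the CAF-vec samples, 5 of the 10 genes (*Col15a1*, *Col4a1*, *Nid2*, *Col4a2* and *Col18a1*) differed by more than 0.5 on the log2 scale, against 24.8% of all genes tested, and all 5 were higher in CAF-vec 1, as 15.2% of all genes tested were by that much. *Zeb1*, an established target of miR-200, was at 43.5 and 50.7 CPM in CAF-vec against 34.1 to 37.8 CPM in CAF-200 (log2 difference -0.36, adjusted *p* = 0.0504, limma). *Zeb2*, another such target, was at 46.2 and 29.8 CPM in CAF-vec and at 31.9, 31.8 and 31.1 CPM in CAF-200, with overlapping groups (log2 difference -0.23, adjusted *p* = 0.374, limma). The genes *Mir200a*, *Mir200b* and *Mir429* were looked for by name and were not found among the genes listed, so the overexpression could not be checked at them. As fibroblasts, all samples expressed *Pdgfra*, *Pdgfrb*, *Vim*, *Col1a1* and *Col1a2*, while *Fap* stayed under 0.5 CPM. Of 9 fibroblast markers *Dcn*, *Lum* and *Thy1* rose in CAF-200, and the summed level was 7421 and 14071 CPM in CAF-vec and between 6501 and 7189 CPM in CAF-200. Endothelial cells and pericytes also make basement membrane. The summed level of 9 endothelial markers was 2.31 to 3.37 CPM in CAF-vec against 1.62 to 2.38 CPM in CAF-200, and of these *Tie1*, *Cldn5* and *Emcn* were listed at 0 in all samples and *Kdr* fell (log2 difference -1.26, adjusted *p* = 0.00807, limma). *Kdr* made up most of the CAF-vec sums, at 2.31 and 1.82 CPM. The study reports it as detectable in CAFs and lowered by miR-200 in RT-qPCR, so its level need not come from endothelial cells. The other endothelial marker tested, *Egfl7*, was at 0 and 0.330 CPM in CAF-vec and at 1.47, 1.19 and 0.718 CPM in CAF-200 (log2 difference 1.31, adjusted *p* = 0.027, limma). That of 7 pericyte markers was 11.1 to 14.6 CPM and 10.0 to 10.8 CPM, with *Kcnj8*, *Abcc9* and *Higd1b* at 0. All 7 epithelial markers were under 0.5 CPM in every sample, with *Krt18* and *Sftpc* at 0. Of 6 macrophage markers, *Lyz2* rose from a CAF-vec mean of 1.55 ± 0.624 CPM (SD, n = 2) to a CAF-200 mean of 7.04 ± 0.510 CPM (SD, n = 3), while *Adgre1* was at 0 and *Ptprc* at most 0.0404 CPM. *Csf1r*, *Cd14* and *Cd68* had log2 differences of -0.46, -0.44 and -0.14, none past the threshold, and the summed level was 13.4 and 15.0 CPM in CAF-vec and between 15.6 and 16.6 CPM in CAF-200. Of 5 mesothelial markers, *Msln* fell from a CAF-vec mean of 6.21 ± 0.670 CPM (SD, n = 2) to a CAF-200 mean of 1.23 ± 0.284 CPM (SD, n = 3) and *Lrrn4* and *Calb2* were at 0, with summed levels of 5.92 and 6.98 CPM in CAF-vec and between 1.11 and 1.62 CPM in CAF-200. The part of the *Kdr*, *Egfl7*, *Lyz2* and *Msln* differences in the results below was not tested.

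The nidogens are a pair of paralogous glycoproteins that bind the laminin γ1 chain and type IV collagen. *Nid1* (ENSMUSG00000005397, chromosome 13, 13437551 to 13512269, plus strand) was at 313.4 and 391.1 CPM in CAF-vec and at 614.6, 636.7 and 665.3 CPM in CAF-200. Every CAF-200 sample was far above both CAF-vec samples, and the CAF-200 values lay close together. The level rose from a CAF-vec mean of 352.3 ± 54.9 CPM (SD, n = 2) to a CAF-200 mean of 638.9 ± 25.4 CPM (SD, n = 3), a log2 difference of 0.87 (standard error 0.129, adjusted *p* = 0.00822, limma). *Nid2* (ENSMUSG00000021806, chromosome 14, 19751265 to 19811787, plus strand) went the other way, at 246.0 and 148.1 CPM in CAF-vec and 74.1, 78.3 and 57.9 CPM in CAF-200. Its highest CAF-200 value was well below the lower CAF-vec value, although the CAF-vec samples were far apart. The log2 difference of *Nid2* was -1.45 (standard error 0.245), and its adjusted *p* of 0.011 from limma missed the threshold. It was the lowest of the 10 genes and ranked 123 from the lowest among the 12175 genes tested. After centring on each sample's median its adjusted *p* was 0.00996, and after quantile normalization it was 0.00776, both from limma and both past the threshold. *Nid1* in turn had an adjusted *p* of 0.0134 after quantile normalization and of 0.049 with the replicate number as a block (limma), and so was not past the threshold in either. CAF-200 3 is the only sample with replicate number 3, so the block takes it out of the comparison. The block difference of *Nid1*, 0.84, was therefore the one without CAF-200 3.

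The ratio of *Nid1* to *Nid2* within a sample does not depend on how samples are scaled. It was 1.27 and 2.64 in the CAF-vec samples and 8.30, 8.13 and 11.5 in the CAF-200 samples. The 2 genes were thus of the same order in CAF-vec and clearly apart in CAF-200, with no overlap between the groups. Each CAF-200 sample was above both CAF-vec samples for *Nid1* and below both for *Nid2*. The single genes had therefore fixed the lack of overlap and the permutation *p* of the ratio, which adds a size and no further support. The log2 ratio differed by 2.32, from 0.88 ± 0.744 (SD, n = 2) to 3.20 ± 0.280 (SD, n = 3), with a *p* of 0.2 in a two-sided exact permutation test, the smallest that 2 against 3 samples allow. With either CAF-vec sample left out the difference was 1.80 or 2.85.

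**Figure D2:**
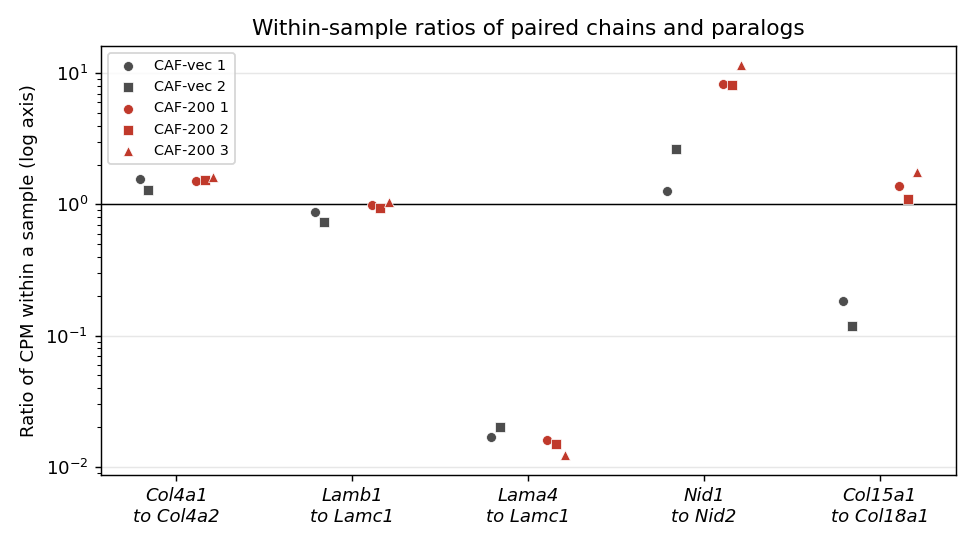
Ratio of 2 genes' CPM within each sample (log axis, line at 1) for chains of one molecule and for paralogs, with CAF-vec samples in grey and CAF-200 samples in red. The ratio of *Col15a1* to *Col18a1* passes from below 1 in both CAF-vec samples to above 1 in all CAF-200 samples, whereas that of *Col4a1* to *Col4a2* overlaps between the groups.

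The collagens XV and XVIII, each with a collagenous core that is broken by many noncollagenous stretches, also differed in opposite directions. *Col15a1* (ENSMUSG00000028339, chromosome 4, 47208161 to 47313167, plus strand) was at 2.97 and 1.32 CPM in CAF-vec and at 10.9, 8.28 and 13.1 CPM in CAF-200. Even the lowest CAF-200 sample was far above the higher CAF-vec sample, and the spread within both groups was wide for a gene of this low level. The level rose from a CAF-vec mean of 2.15 ± 1.16 CPM (SD, n = 2) to a CAF-200 mean of 10.8 ± 2.42 CPM (SD, n = 3), or 5.01-fold, and the log2 difference of 2.14 (standard error 0.318, adjusted *p* = 0.00818, limma) ranked 53 from the highest among the genes tested. *Col18a1* (ENSMUSG00000001435, chromosome 10, 77052178 to 77166548, minus strand) was at 16.2 and 11.1 CPM in CAF-vec and at 7.89, 7.52 and 7.41 CPM in CAF-200. The CAF-200 samples were nearly equal and lay below both CAF-vec samples, and the log2 difference was -0.78 (standard error 0.168, adjusted *p* = 0.021, limma). The ratio of *Col15a1* to *Col18a1* was 0.183 and 0.119 in CAF-vec and 1.38, 1.10 and 1.77 in CAF-200. *Col18a1* was therefore the more abundant in reads in both CAF-vec samples and *Col15a1* in all CAF-200 samples. The log2 ratio differed by 3.23 (exact permutation *p* = 0.2, two-sided, the smallest possible), and by 3.55 or 2.92 without CAF-vec 1 or CAF-vec 2. As for the nidogens, the opposite directions of the single genes, each without overlap, had fixed the permutation *p* of this ratio. *Col15a1* had an adjusted *p* of 0.00783 with the replicate number as a block (limma). That block takes CAF-200 3 out of the comparison, and its log2 difference of 1.99 was the one without this sample. Fitted without CAF-200 3, *Col15a1* had an adjusted *p* of 0.0482 (limma). Without a filter on low values its adjusted *p* was 0.0163 (limma). Genes on the opposite strand overlap *Col15a1* (*Gm12426*), *Col4a2* (*Gm15419*), *Nid1* (*Gm48682*) and *Nid2* (*Rtraf*), and the strand setting of the counting is not given in the sources used here.

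Type IV collagen, the main structural collagen of basement membranes, is most often a trimer of 2 α1 chains and 1 α2 chain, encoded by *Col4a1* and *Col4a2*. The genes lie head to head on chromosome 8, *Col4a1* from 11198423 to 11312826 on the minus strand and *Col4a2* from 11312805 to 11449287 on the plus strand, and overlap by 22 bases in the annotation. *Col4a1* was at 113.9 and 61.9 CPM in CAF-vec and at 126.1, 120.3 and 137.8 CPM in CAF-200. CAF-vec 1 lay close to the CAF-200 samples and CAF-vec 2 stood well below. *Col4a2* was at 72.8 and 47.7 CPM in CAF-vec and at 83.9, 78.7 and 84.8 CPM in CAF-200, the same order of samples as for *Col4a1*. Neither gene passed the test, with log2 differences of 0.60 (95% confidence interval -0.023 to 1.23, adjusted *p* = 0.121, limma) and 0.48 (0.029 to 0.93, adjusted *p* = 0.0964, limma). These differences rested on CAF-vec 2, since without CAF-vec 1 they were 1.04 and 0.78 and without CAF-vec 2 they were 0.17 and 0.18. The ratio of *Col4a1* to *Col4a2* was 1.56 and 1.30 in CAF-vec and between 1.5 and 1.62 in the CAF-200 samples. This ratio overlapped between the groups (log2 difference 0.12, exact permutation *p* = 0.6, two-sided), and its difference was -0.012 without CAF-vec 2. Per kb of exon, *Col4a1* stood at 11.8 CPM and *Col4a2* at 9.10 CPM on average in CAF-vec, and at 17.2 and 12.5 CPM in CAF-200.

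Among the laminin genes, *Lamc1* (ENSMUSG00000026478, chromosome 1, 153218922 to 153332786, minus strand) encodes γ1, the γ chain of most laminins. It was at 181.4 and 170.1 CPM in CAF-vec and at 123.7, 117.5 and 119.1 CPM in CAF-200. Both groups were tight and clearly apart, and *Lamc1* fell from a CAF-vec mean of 175.7 ± 7.95 CPM (SD, n = 2) to a CAF-200 mean of 120.1 ± 3.24 CPM (SD, n = 3). The log2 difference of -0.55 (standard error 0.085, adjusted *p* = 0.00892, limma) had a 95% confidence interval of -0.76 to -0.34, and the call sat near the threshold. The adjusted *p* was 0.0142 after quantile normalization, 0.0114 after centring on sample medians and 0.0801 with the replicate block, all from limma. *Lamb1* (chromosome 12), the gene of the β1 chain, was at 159.4 and 124.0 CPM in CAF-vec and at 122.0, 111.1 and 123.5 CPM in CAF-200. CAF-vec 2 and the CAF-200 samples nearly touched, and the log2 difference of -0.24 (95% confidence interval -0.57 to 0.085, adjusted *p* = 0.205, limma) did not pass the test. The *Lamb1* difference was -0.062 without CAF-vec 1 and -0.42 without CAF-vec 2, the latter past the threshold. *Lama4* (chromosome 10), whose α4 chain is typical of laminins made by mesenchymal and endothelial cells, was low, at 3.06 and 3.43 CPM in CAF-vec and 1.97, 1.74 and 1.46 CPM in CAF-200. All CAF-200 samples were below both CAF-vec samples, and the log2 difference was -0.76 (standard error 0.151, adjusted *p* = 0.0171, limma). Within a sample, the ratio of *Lamb1* to *Lamc1* was 0.879 and 0.729 in CAF-vec and 0.986, 0.945 and 1.04 in CAF-200, a log2 difference of 0.30. That of *Lama4* to *Lamc1* was 0.0168 and 0.0202 in CAF-vec and 0.0159, 0.0148 and 0.0122 in CAF-200, a log2 difference of -0.37. Neither ratio overlapped between the groups, and both had an exact permutation *p* of 0.2, two-sided, the smallest possible. Both sizes depended on the CAF-vec sample kept. The difference for *Lamb1* to *Lamc1* was 0.44 without CAF-vec 1 and 0.17 without CAF-vec 2, and for *Lama4* to *Lamc1* it was -0.50 and -0.24.

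To set these chains beside the rest of their family, the 8 laminin α and β chain genes were put on a scale of CPM per kb of exon. *Lama4* made up 2.97% and 3.55% of the summed α chain level in the CAF-vec samples and 2.80% to 3.23% in CAF-200. *Lama5*, the α5 chain of many mature basement membranes, made up 95.9% to 96.5% in CAF-vec and 95.4% to 95.7% in CAF-200, so that *Lama4* was a small part of the α chain transcripts in every sample. *Lama5* itself fell, from a CAF-vec mean of 90.5 ± 4.45 CPM (SD, n = 2) to a CAF-200 mean of 50.7 ± 5.09 CPM (SD, n = 3), a log2 difference of -0.83 (adjusted *p* = 0.00633, limma). *Lamb1* made up 31.8% and 37.3% of the β chain level in CAF-vec and 46.5% to 52.0% in CAF-200. The β2 gene *Lamb2* accounted for nearly all of the rest, at 209.3 and 127.6 CPM in CAF-vec against 69.9 to 78.2 CPM in CAF-200 (log2 difference -1.11, adjusted *p* = 0.0152, limma). The shares of *Lamb1* did not overlap between the groups and those of *Lama4* did. *Lama2*, the α2 chain of muscle laminins, was at 0.213 and 0.329 CPM in CAF-vec against 0.616 to 1.09 CPM in CAF-200 (log2 difference 0.78, adjusted *p* = 0.0368, limma). *Lama1*, *Lama3* and *Lamb3* were too low to be tested.

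**Figure D3:**
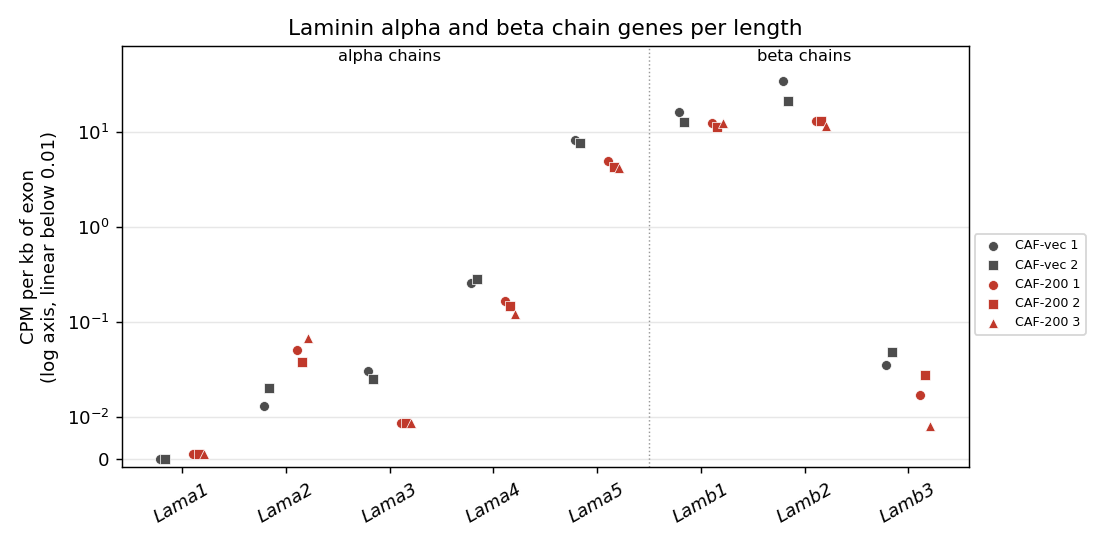
Level of the 8 laminin α and β chain genes in CPM per kb of exon (log axis, linear below 0.01), grouped into α and β chains, with CAF-vec samples in grey and CAF-200 samples in red. *Lama5*, *Lamb1* and *Lamb2* hold most of the level, and *Lama4* stays below 0.3 CPM per kb in all samples.

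Perlecan, the heparan sulfate proteoglycan encoded by *Hspg2* (chromosome 4), was at 173.0 and 182.7 CPM in CAF-vec and at 168.7, 136.2 and 149.1 CPM in CAF-200. The highest CAF-200 sample came close to the CAF-vec samples, and *Hspg2* did not pass the test (log2 difference -0.24, 95% confidence interval -0.53 to 0.052, adjusted *p* = 0.169, limma).

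**Figure D4:**
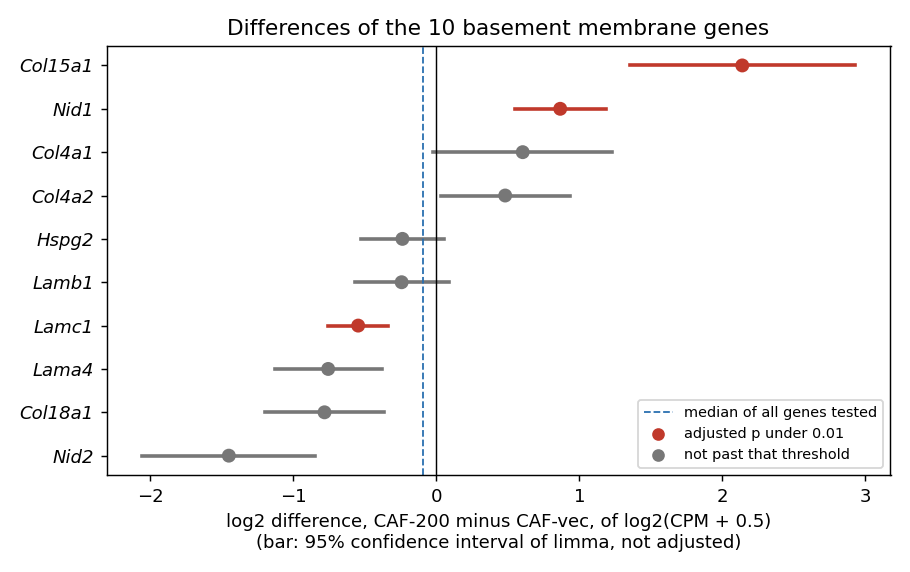
Log2 difference (CAF-200 minus CAF-vec, of log2(CPM + 0.5)) of the 10 genes with 95% confidence intervals from limma, red where the adjusted *p* was under 0.01, with the median of all genes tested as a dashed line. The differences run from -1.45 for *Nid2* to 2.14 for *Col15a1*, and the paralogs *Nid1* and *Nid2*, and *Col15a1* and *Col18a1*, lie on opposite sides of 0.

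Per kb of exon, *Nid1* was the highest of the 10 genes in both groups, at 50.7 CPM on average in CAF-vec and 92.0 CPM in CAF-200. In CAF-vec its range overlapped that of *Nid2* (38.1 CPM), which was second, followed by *Lamc1* (21.2 CPM) and *Lamb1* (14.3 CPM). *Lamb1*, *Hspg2*, *Col4a1* and *Col4a2* followed each other with overlapping ranges in CAF-vec. In CAF-200, *Col4a1* (17.2 CPM) took the second place, and *Nid2* (13.5 CPM) came after *Lamc1* with a range that overlapped those of its neighbours *Lamc1* (14.5 CPM) and *Col4a2* (12.5 CPM). *Col15a1*, *Col18a1* and *Lama4* were the lowest 3 in both groups, at 0.338, 1.95 and 0.269 CPM per kb in CAF-vec and 1.69, 1.08 and 0.143 CPM per kb in CAF-200. *Col15a1* and *Lama4* overlapped in CAF-vec and all 3 were apart in CAF-200. These levels rest on the union of annotated exons, and so depend on which isoforms the cells use.

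Other genes of the pathway were taken as 6 lists of 75 genes in all, of which 54 were tested. Of these 54, 4 rose and 9 fell, with a median log2 difference of -0.099, where 4.45% of all genes tested rose and 5.57% fell with a median of -0.094. The 4 other laminin chains tested of 8 listed held 1 gene that fell, *Lama5*. Among 14 other basement membrane components tested of 23 listed, 2 rose and 2 fell. *Npnt*, which encodes the integrin ligand nephronectin, rose from a CAF-vec mean of 14.3 ± 1.91 CPM (SD, n = 2) to a CAF-200 mean of 83.4 ± 4.02 CPM (SD, n = 3), a log2 difference of 2.51 (adjusted *p* = 9.3e-04, limma). The calcium-binding matrix proteins SMOC1 and SMOC2 are paralogs, and *Smoc1* rose (log2 difference 1.31, adjusted *p* = 0.00145, limma) while *Smoc2* fell (-1.67, adjusted *p* = 0.0013, limma). *Agrn*, the gene of the heparan sulfate proteoglycan agrin, fell with a log2 difference of -0.65 (adjusted *p* = 0.00891, limma). The gene of this list with the highest mean over the 5 samples, *Sparc*, was at 2599 and 1600 CPM in CAF-vec against 1381 to 1417 CPM in CAF-200 (log2 difference -0.55, adjusted *p* = 0.11, limma). In CAF-200 *Fbln2*, the gene of fibulin-2, was higher than *Sparc*, at 1830 to 1898 CPM after 1250 and 1398 CPM in CAF-vec (log2 difference 0.50, adjusted *p* = 0.031, limma). The median of this list was -0.011.

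Of 8 basement membrane receptors tested of 11 listed, 1 rose and 3 fell, with a median log2 difference of -0.69 against -0.094 for all genes tested. The laminin-binding integrin subunits *Itga3* (log2 difference -1.35, adjusted *p* = 0.00286, limma) and *Itga7* (-1.11, adjusted *p* = 0.00305, limma) fell, as did the laminin receptor gene *Dag1*, which encodes dystroglycan (-0.88, adjusted *p* = 0.00375, limma). *Itga6*, another laminin-binding subunit, rose from a CAF-vec mean of 1.18 ± 0.0465 CPM (SD, n = 2) to a CAF-200 mean of 3.36 ± 0.724 CPM (SD, n = 3), a log2 difference of 1.18 (adjusted *p* = 0.00949, limma). The shared partner *Itgb1* was the highest of the list, at 612.0 and 899.0 CPM on average (log2 difference 0.55, adjusted *p* = 0.0161, limma).

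In the list of collagen assembly and crosslinking, 1 of 15 genes tested rose, the prolyl hydroxylase subunit *P4ha3* (log2 difference 0.92, adjusted *p* = 0.00566, limma), and none fell by limma at an adjusted *p* under 0.01. At an adjusted *p* under 0.05 from limma, 2 of the 15 were higher and 3 were lower, where 11.9% and 18.6% of all genes tested were. *Pxdn*, which encodes the peroxidasin that crosslinks type IV collagen, had a log2 difference of 0.068 (adjusted *p* = 0.565, limma). The gene with the highest mean over the 5 samples was *Serpinh1*, which encodes the collagen chaperone HSP47, at 754.2 and 765.6 CPM in CAF-vec and at 694.8, 732.8 and 691.6 CPM in CAF-200 (log2 difference -0.11, adjusted *p* = 0.448, limma). Of 4 degrading enzymes tested of 8 listed, the membrane metalloproteinase gene *Mmp14* fell from a CAF-vec mean of 434.9 ± 25.6 CPM (SD, n = 2) to a CAF-200 mean of 224.3 ± 2.43 CPM (SD, n = 3), a log2 difference of -0.95 (adjusted *p* = 0.00318, limma). *Mmp9*, *Mmp3*, *Mmp7* and *Hpse* were too low to be tested, and the highest gene, *Ctsl*, had a log2 difference of 0.039 (adjusted *p* = 0.882, limma). Of 9 interstitial matrix genes, *Col6a1* and *Col6a2* fell (log2 differences -1.62 and -1.28), and the median of -0.14 compares with -0.24 for the 10 basement membrane genes. *Col6a3*, the gene of another collagen VI chain, went the other way without passing the threshold (log2 difference 0.56, adjusted *p* = 0.0126, limma). The highest interstitial gene, *Col1a2*, was at 5185 and 2567 CPM in CAF-vec against 2048 to 2284 CPM in CAF-200 (log2 difference -0.75, adjusted *p* = 0.112, limma).

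**Figure D5:**
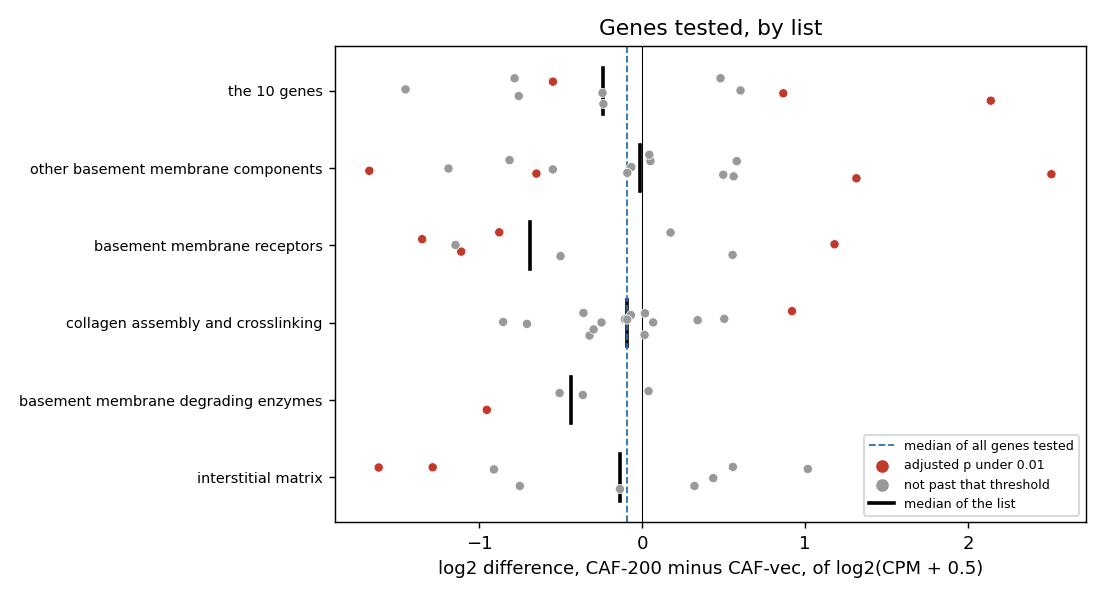
Log2 differences (CAF-200 minus CAF-vec, of log2(CPM + 0.5)) of the tested genes of the 10 and of 5 lists, with 1 point a gene, red where the adjusted *p* from limma was under 0.01, a black bar at the median of the list and a dashed line at the median of all genes tested. Each list shown but those of degrading enzymes and interstitial matrix holds a gene that rose, and each but that of collagen assembly holds one that fell.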

How the data were processed

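Stranded mRNA libraries were made from 2 CAF-vec and 3 CAF-200 samples. The submitters' processing notes name FastQC, cutadapt, Trimmomatic, STAR, RSEM, edgeR and GRCm38 (mm10), without versions or settings. The authors deposited 1 table of normalized values in CPM, whose name gives TMM as the scaling. Its columns sum to between 999956 and 1000111 CPM, whole reads could not be recovered, and the depth of each sample is therefore unknown. The planned count tests on recovered reads were not run. The labels and the study's methods name different RNA kits and vectors with different resistance markers, and the methods state no drug selection. The methods also state triplicate RNA for both groups and lung fibroblasts as the cells given the miR-200 vector, where the labels give 2 CAF-vec samples and CAFs. The labels were followed.

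Ratios within a sample were tested on log2 of the plain CPM ratio. Single genes were tested on log2(CPM + 0.5), to which limma 3.58.1 under R 4.3.3 was fitted (lmFit, eBayes with a variance trend) for 12175 genes that reached 0.5 CPM in 2 or more samples. A gene rose or fell at an adjusted *p* under 0.01 (Benjamini-Hochberg over all genes tested). The fit was tested on simulated data with independent samples and the same spread in both groups. The CAF-vec samples stood further apart than the CAF-200 samples, so the simulation does not show how the fit behaves on these data. Gene positions, exon lengths and 3′-UTRs came from GENCODE M21 (GRCm38), which names 21795 of 21835 genes, and miRNA sequences from RefSeq (GRCm38.p6). The members and lists were chosen with earlier results of these data known. Named are all 10 genes and, from each list, the genes that rose or fell and the gene with the highest mean CPM, besides *Zeb1* and *Zeb2*. All other genes named, such as *Pxdn*, *Fbln2*, *Lama2*, genes too low to test and cell type markers, fall outside this rule and were named after their values were seen. Some values of listed genes are not reported here. Exact permutation tests used SciPy 1.17.1 under Python 3.11.15, tables used pandas 2.3.3 and numpy 2.4.6, and plots matplotlib 3.10.9.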

Additional observations from a re-analysis of the deposited data

How the results depend on the processing

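All 10 basement membrane genes kept the direction of their log2 difference under the 14 alternative fits. The fit with the replicate block gave each of the 10 genes the same log2 difference as the fit without CAF-200 3. Those fits are therefore not separate checks of direction. The 2 genes that rose became 0 without a filter on low values, 1 after quantile normalization, 1 with the replicate number as a block and 1 where a log2 difference beyond 1 was also required. The 1 gene that fell became 0 without a filter, 0 without a variance trend, 0 with robust eBayes, 0 with the replicate block, 0 with the fold requirement and 4 at an adjusted *p* under 0.05. The count stayed at 1 after quantile normalization and after centring on sample medians, but the gene was then *Nid2* in place of *Lamc1*. With 1 sample left out the counts ran from 0 to 4 higher and from 0 to 4 lower. Both were 0 without any 1 CAF-200 sample, where at most 1 of all genes passed an adjusted *p* of 0.01 from limma and 6 of the 10 genes, and 31.5% to 33.5% of all genes tested, had an unadjusted *p* under 0.05. The largest counts, 4 higher and 4 lower, came without CAF-vec 1, and 4 were also lower without CAF-vec 2, where 29.9% and 50.6% of all genes tested passed in either direction.

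The 4 and 9 genes of the 6 pathway lists that rose and fell became 12 and 18 at an adjusted *p* under 0.05, 2 and 1 with the replicate block, and 0 to 14 and 0 to 24 with 1 sample left out. The shares of all genes tested were 11.9% higher and 18.6% lower at 0.05, 1.40% in either direction with the block, and as given above without a CAF-vec sample. With the fold requirement, 3 rose and 5 fell, where 4.72% of all genes tested passed in either direction. These repeats were chosen after seeing the data. The difference in the ratio of *Col4a1* to *Col4a2* ran from -0.012 to 0.26 with 1 sample left out. The deviations of samples with replicate numbers 1 and 2 had correlations of 0.25 and 0.13 across genes, with no source saying that the numbers pair samples. Of all genes tested, 1220 passed an adjusted *p* of 0.01 and 171 did with the replicate block. The cause of these changes was not tested.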
